A study of Mus musculus with 13 samples.

Results

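The 10 genes described here are Pecam1, Cdh5, Kdr, Flt1, Tek, Tie1, Emcn, Esam, Erg and Icam2, a set chosen by name as genes known from the endothelium, the cell layer that lines blood vessels. They are 10 of the 55487 genes counted in poly-A RNA-seq of mouse embryonic fibroblasts (MEFs), and each symbol matched exactly 1 counted gene. The 13 libraries compared MEFs before and after spontaneous immortalization, the outgrowth of colonies from cultures that had become senescent. Of the wild-type (WT) cells there were 3 libraries of primary MEFs (pMEFs; clones 3, 4 and 5) and 3 of immortalized lines (iMEFs) with the same clone numbers. Of cells labelled Prkd3-/-, named for the gene of a protein kinase D, there were 3 pMEF libraries (clones 13, 14 and 15) and 4 iMEF libraries (13, 13a, 14 and 15). The medium held 10% fetal calf serum, which was raised to 20% once cultures had become senescent, and per the study's methods the established lines were again kept at 10%. Each iMEF library is 1 line, and how line 13a relates to clone 13 beyond its number is not given in the sources used here.

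Libraries held from 35273408 to 100441756 counts, so that 3 counts correspond to between 0.0299 and 0.085 CPM, a unit of counts relative to library size. Reads of Prkd3 were found in the Prkd3-/- libraries too, at 33.4 to 43.2 CPM in pMEFs and 43.4 CPM or more in lines, and all 7 libraries lay below the 68.4 to 95.5 CPM of the WT libraries. A count per gene does not show whether an exon is missing, and the genotype therefore stands here as a label. The genotypes were also deposited as separate tables, and a difference between genotypes cannot be told apart from one between tables. Prkd3-/- pMEF library 14 stood apart from the other Prkd3-/- pMEFs in markers of macrophages, whose 9 genes together reached 1042 CPM there against 93.1 and 223 CPM in clones 13 and 15. The same markers summed to between 674 and 703 CPM in WT pMEFs. Transcripts of Xist and of Y-linked genes occurred together in every WT pMEF library, with Xist at 43.7 to 55.3 CPM and the Y-linked Ddx3y at 51.1 to 63.5 CPM. WT line 3 held 175 CPM of Xist and 0.216 CPM of Ddx3y. The counts do not tell whether each library was made from 1 embryo, and a mixture of sexes was not tested. Xist had at least 2982 counts in every WT library and at most 10 in every Prkd3-/- library, so that genotype cannot be told apart from the sex of the embryos either.

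Endothelial cells respond to vascular endothelial growth factor (VEGF) through the receptor tyrosine kinase Kdr (VEGFR2), which carries most of the growth signal, and Flt1 (VEGFR1), which binds the ligand tightly and in part acts as a decoy. A second system uses the angiopoietins, with Angpt1 and Angpt2 as ligands of the receptor Tek (Tie2), while its relative Tie1 modulates Tek and has no ligand of its own among them. Cdh5 (VE-cadherin), Pecam1 (CD31) and Esam build the contacts between endothelial cells, Icam2 binds leukocyte integrins, Emcn is a sialomucin of venous and capillary endothelium, and Erg is an ETS transcription factor that keeps endothelial genes active. Several are also expressed outside vessels: Kdr and Flt1 in some mesenchymal cells and, for Flt1, monocytes, Erg in cartilage and limb mesenchyme, and Pecam1 and Icam2 in blood cells.

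The upstream sequences of the 4 receptor genes are shown because these receptor tyrosine kinases, of the VEGF receptor and the Tie families, ranged in level from the highest of the 10 genes to the lowest. RefSeq promoters were matched for 6 of the 10 genes, Kdr, Flt1, Tek, Tie1, Emcn and Erg. Each sequence holds the 250 bases before the RefSeq start on GRCm38.p6, read 5′ to 3′ on the gene's strand. Capitals mark GGAAG or its complement CTTCC, a form of the sites that ETS factors such as Erg recognise. The shorter core GGAA and its complement TTCC were not marked or counted alone, and they also occur in the Tek and Kdr windows. Kdr lies at chr5:75978456-75978705 (minus strand), Flt1 at chr5:147726012-147726261 (minus strand), Tek at chr4:94739039-94739288 (plus strand) and Tie1 at chr4:118489850-118490099 (minus strand).
Kdr: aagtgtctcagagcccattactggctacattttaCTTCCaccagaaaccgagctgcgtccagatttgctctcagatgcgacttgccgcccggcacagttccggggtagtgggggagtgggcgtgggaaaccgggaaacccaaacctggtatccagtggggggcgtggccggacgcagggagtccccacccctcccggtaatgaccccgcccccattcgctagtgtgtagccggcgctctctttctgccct
Flt1: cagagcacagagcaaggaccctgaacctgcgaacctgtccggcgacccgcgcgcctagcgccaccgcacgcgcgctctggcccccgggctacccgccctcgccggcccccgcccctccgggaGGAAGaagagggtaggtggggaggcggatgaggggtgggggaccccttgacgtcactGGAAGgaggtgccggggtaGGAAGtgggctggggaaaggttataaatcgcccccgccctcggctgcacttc
Tek: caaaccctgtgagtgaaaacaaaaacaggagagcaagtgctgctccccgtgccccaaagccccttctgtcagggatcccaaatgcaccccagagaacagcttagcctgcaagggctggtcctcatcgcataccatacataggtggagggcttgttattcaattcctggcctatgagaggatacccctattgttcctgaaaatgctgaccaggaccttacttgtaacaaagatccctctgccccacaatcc
Tie1: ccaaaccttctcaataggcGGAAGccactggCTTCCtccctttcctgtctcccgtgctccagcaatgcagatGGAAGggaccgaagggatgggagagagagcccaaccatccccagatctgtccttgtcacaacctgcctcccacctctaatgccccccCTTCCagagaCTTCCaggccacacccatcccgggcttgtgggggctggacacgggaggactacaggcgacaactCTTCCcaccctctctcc
The letters occurred 6 times before Tie1, 3 times before Flt1, once before Kdr and 0 times before Tek. Of 32817 mouse promoter windows of the same length, 64.1% held them on either strand and 10.7% held them at least 3 times. These matches describe the letters only. Flt1 and Kdr, both on chromosome 5, had windows of 70.4% and 61.6% G and C, against 51.2% before Tek.

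Per length of gene, the order of the levels was led by Flt1. In WT pMEFs it reached 2.89 ± 0.214 FPKM (fragments per kilobase of exon and per unit of library size, as for CPM; mean ± SD, n = 3). Erg and Tek followed at 1.45 ± 0.0624 and 1.43 ± 0.413 FPKM and did not differ beyond their spread. Kdr came next with 0.594 ± 0.0821 FPKM. The levels of Esam (0.184 ± 0.0600 FPKM), Emcn (0.140 ± 0.0291 FPKM) and Icam2 (0.133 ± 0.0175 FPKM) lay within each other's spread, and below them were Cdh5 at 0.0678 ± 0.0248 FPKM and Pecam1 at 0.0189 ± 0.0132 FPKM. Tie1 had 0 counts in all 3 WT pMEF libraries. In Prkd3-/- pMEFs Flt1 again had the highest mean, 2.77 ± 0.848 FPKM, but in clone 13 it was at 1.88 FPKM, below Erg at 3.64 and Tek at 1.99 FPKM. The means of Erg (1.95 ± 1.65 FPKM), Kdr (1.47 ± 0.996 FPKM), Tek (1.24 ± 0.844 FPKM) and Emcn (0.627 ± 1.01 FPKM) were not separated by their spread.

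Several genes that define endothelial cells were at or near 0, while others were present. Tie1 had 0 counts in 11 of 13 libraries and at most 2 counts in the others. Pecam1 did not exceed 0.200 CPM, Icam2 0.283 CPM and Esam 0.698 CPM in any library, and Cdh5 stayed at or under 0.390 CPM in every library but 1. Among 23 further endothelial markers, 4 were under 0.1 CPM in all 13 libraries, namely Sox17 with no count, Cldn5, Gpihbp1 and Robo4. A further 10 had a mean of at least 1 CPM, namely Egfl7, Vwf, Clec14a, Ecscr, Cd93, Ptprb, Rasip1, Cyyr1, Eng and Cd34. In WT pMEFs Clec14a was at 11.4 to 11.6 CPM, Ecscr at 8.22 to 8.98 CPM, Ptprb at 4.73 to 6.35 CPM and Vwf, the von Willebrand factor gene, at 2.53 to 2.61 CPM. Markers of fibroblasts such as Col1a1 and Col3a1 together made up between 25265 and 92519 CPM. The name "endothelial" refers here to where the 10 genes are known from, and whether the cultures held a few endothelial cells was not tested. Of the 10 genes, Flt1, Kdr, Tek, Erg and Emcn had a mean of at least 1 CPM, the last through a single library.

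**Figure D1:**
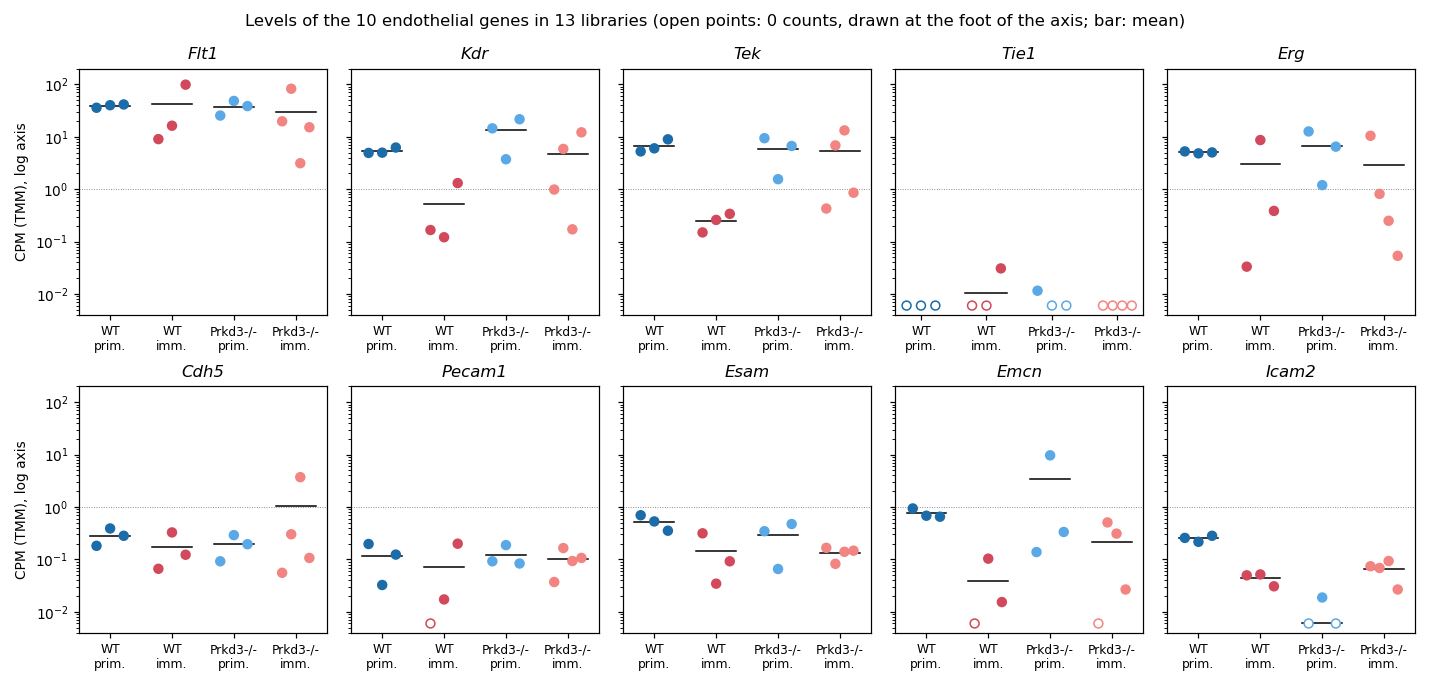
Levels of the 10 endothelial genes in CPM on a log axis, 1 panel per gene and 1 point per library, for WT and Prkd3-/- pMEFs (prim.) and iMEFs (imm.), with the group mean as a bar and libraries without a count as open points at the foot of the axis. The dotted line marks 1 CPM, above which Flt1 lay in all 13 libraries, and Tie1 had counts in only 2 libraries.

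Among the 10 genes, Tek had the smallest p-value in WT cells. This receptor gene of the angiopoietins (ENSMUSG00000006386) lies on chromosome 4 of GRCm38 from 94739289 to 94874976. It was at 5.25, 6.01 and 8.93 CPM in WT pMEFs of clones 3, 4 and 5, and at 0.149, 0.259 and 0.338 CPM in the lines with the same clone numbers. All 3 lines lay far below all 3 pMEF libraries. Its Log2FC was −4.78 (standard error 0.41, edgeR quasi-likelihood test, adjusted p = 0.00317), and Tek was the only 1 of the 8 members tested that passed the thresholds of an adjusted p under 0.01 and a |Log2FC| of at least 1. Of all 19836 genes tested, 1.76% were called lower. The lines rested on few reads, with 9 to 22 counts of Tek each. With the clone as a block the Log2FC was −4.81 (standard error 0.27) and the edgeR adjusted p of 0.0230 did not pass. It did not pass either without pMEF library 3, 4 or 5, or without line 4, when the adjusted p from edgeR lay between 0.0132 and 0.0265. Over all alternatives the adjusted p of Tek ranged from 7.33e-30 with DESeq2 to 0.128 with limma, while its Log2FC stayed between −5.08 and −4.51.

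The neighbouring receptor system moved less evenly. Kdr (ENSMUSG00000062960; chromosome 5 from 75932827 to 75978458), the signalling VEGF receptor, was at 4.91, 4.97 and 6.22 CPM in the WT pMEFs and at 0.166, 0.121 and 1.31 CPM in lines 3, 4 and 5. The groups did not overlap, but line 5 lay well above lines 3 and 4. Its Log2FC was −3.35 (standard error 0.95, edgeR adjusted p = 0.129), which did not pass. Without line 5 the Log2FC was −5.25 (edgeR adjusted p = 0.00104), and Kdr was then called together with Tek, where 3.48% of all genes were called lower.

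Flt1 (ENSMUSG00000029648; chromosome 5 from 147561604 to 147726011), the more abundant VEGF receptor, gave no common direction in WT cells. The pMEF libraries were close to each other at 35.8, 40.0 and 41.3 CPM. The lines spread over an order of magnitude on both sides, with 9.01, 16.2 and 98.7 CPM in lines 3, 4 and 5. The Log2FC was 0.06 (standard error 0.88, edgeR adjusted p = 0.981), and it was −1.67 with an adjusted p of 0.0285 when line 5 was left out. Line 5 thus held the highest Kdr and the highest Flt1 of the 3 WT lines.

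The WT lines also stood far apart in Erg (ENSMUSG00000040732; chromosome 16 from 95359169 to 95586593). It was at 5.25, 4.81 and 5.02 CPM in the pMEFs, and at 0.0332, 8.64 and 0.384 CPM in lines 3, 4 and 5. Line 4 therefore lay above all pMEF libraries, and line 3 had 2 counts of this transcription factor gene. The Log2FC of −0.78 had a standard error of 1.52 (edgeR adjusted p = 0.824). Line 4 was also the WT line with the highest Clec14a, at 40.5 CPM against 0.232 and 0.369 CPM in lines 3 and 5, and the highest Eng, at 100.1 CPM against 6.72 and 7.51 CPM.

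Of the genes near the detection limit, 3 were lower in every WT line than in every WT pMEF library. The sialomucin gene Emcn (chromosome 3 from 137341067 to 137432185) was at 0.940, 0.683 and 0.654 CPM in pMEFs and at 0, 0.104 and 0.0154 CPM in lines (Log2FC −4.27 with a standard error of 0.88, edgeR adjusted p = 0.0540). Icam2 (chromosome 11 from 106377656 to 106388075), the integrin ligand, was at 0.217 to 0.283 CPM against 0.0307 to 0.0518 CPM, with 16 to 20 counts per pMEF library and 2 to 3 per line. Its Log2FC was −2.51 (standard error 0.37, edgeR adjusted p = 0.0193). The junction gene Esam (chromosome 9 from 37528078 to 37538319) was at 0.354 to 0.698 CPM in pMEFs and 0.0345 to 0.315 CPM in lines (Log2FC −1.87, edgeR adjusted p = 0.239). None of the 3 passed the thresholds. Cdh5, at 0.182 to 0.390 CPM in pMEFs and 0.0664 to 0.328 CPM in lines, and Pecam1 overlapped between states, and Pecam1 and Tie1 were removed by the filter on low counts.

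With Kdr and Tek, these made 5 members for which every WT line lay below every pMEF library, where 15.7% of all tested genes did. The count was the same with library sizes alone and with the size factors of DESeq2. The filter on low counts kept Emcn and Icam2 through pMEFs, with 37 to 63 and 16 to 20 counts there. The lines held at most 6 and 3 counts of them. Pecam1 and Tie1, low in both states, were removed. Both the 5 members and the median below can thus in part be set by this filter. The median Log2FC of the 8 members tested was −2.19, against 0.04 over all genes. DESeq2 called 4 of them lower at the same thresholds, Kdr (adjusted p = 9.42e-04), Tek (7.33e-30), Emcn (2.67e-06) and Icam2 (0.00528), and gave no adjusted p for Erg. Of all genes DESeq2 tested, 3.68% were called lower. In bulk libraries, fewer cells that express a gene and less RNA per cell cannot be told apart.

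**Figure D2:**
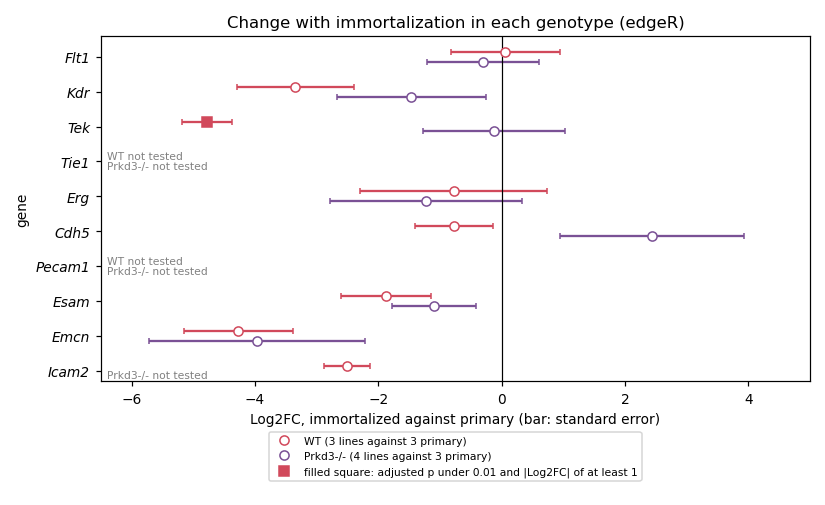
Log2FC of immortalized against primary MEFs (x axis) for each of the 10 genes (y axis) in WT and in Prkd3-/- cells, with the standard error as a bar and a filled square where the thresholds were passed. Tek in WT cells, at −4.78, is the single filled square, and 3 values of genes in Prkd3-/- and 2 in WT cells were not tested for low counts.

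Among Prkd3-/- cells no member passed. For none of them did all iMEFs lie below all pMEFs, as 5.53% of all tested genes did, and none of the 7 members tested had an unadjusted p under 0.05 or was called with DESeq2. Tek was at 9.38, 1.55 and 6.67 CPM in pMEFs of clones 13, 14 and 15. Lines 13, 13a, 14 and 15 held 0.426, 6.83, 13.2 and 0.855 CPM. Lines 13 and 13a thus stood far apart although they share a number, and line 14 had the highest level of all 13 libraries. The Log2FC was −0.13 (standard error 1.15, edgeR adjusted p = 0.991). Its sign changed with the libraries used, from −1.11 without line 14 to 0.37 without pMEF library 13. Of all 20298 genes tested in this genotype, 0.0% were called lower with edgeR, 1331 had an unadjusted p under 0.05, and DESeq2 called 190 genes.

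Kdr was at 14.5, 3.72 and 21.6 CPM in Prkd3-/- pMEFs of clones 13, 14 and 15, and at 0.982, 5.86, 0.171 and 12.1 CPM in lines 13, 13a, 14 and 15. The groups overlapped, and the Log2FC was −1.47 (standard error 1.21, edgeR adjusted p = 0.857). Line 15, with the highest level among these iMEFs, shares its clone number with the pMEFs of the highest level. Flt1 was at 25.4, 48.2 and 38.5 CPM in these pMEFs and at 19.7, 82.5, 3.13 and 15.2 CPM in the lines (Log2FC −0.31 with a standard error of 0.90, edgeR adjusted p = 0.963). Here line 13a was the highest and line 14, with its high Tek, the lowest of all 13 libraries.

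Erg was at 12.6, 1.19 and 6.47 CPM in Prkd3-/- pMEFs of clones 13, 14 and 15. Line 13 kept 10.4 CPM, while lines 13a, 14 and 15 held 0.811, 0.249 and 0.0534 CPM. The spread among lines exceeded the difference between states (Log2FC −1.22 with a standard error of 1.56, edgeR adjusted p = 0.894). Emcn was at 0.138, 9.70 and 0.335 CPM in these pMEFs and between 0 and 0.509 CPM in the lines, so that its Log2FC of −3.97 (standard error 1.75, edgeR adjusted p = 0.769) rested on pMEF library 14 and was −0.12 without it.

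That library was also the one with 1042 CPM of macrophage markers, and the part these cells had in its Emcn level was not tested. In WT pMEFs, where the markers summed to 674 to 703 CPM, Emcn was at 0.654 to 0.940 CPM. Cdh5 was low in every Prkd3-/- library, between 0.0556 and 0.302 CPM, with the exception of line 14 at 3.72 CPM, and its Log2FC of 2.44 (standard error 1.49, edgeR adjusted p = 0.832) became −0.29 without that line. Esam ranged from 0.0657 to 0.474 CPM in pMEFs and from 0.0825 to 0.167 CPM in lines (Log2FC −1.09, edgeR adjusted p = 0.835). Icam2 had at most 6 counts, Pecam1 at most 20 and Tie1 at most 1 in any Prkd3-/- library, and these 3 were not tested.

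Each line can also be read beside the pMEFs of its own clone number, where lines 13 and 13a share the same pMEF library. Kdr was lower in 7 of 7 lines. The pMEF level was 1.78 times that of the line for line 15, 2.47 times for 13a, 4.77 times for line 5, and between 14.7 and 41.1 times for the other 4 lines. Of all 21197 genes tested over the 13 libraries, 4.95% were lower in all 7 lines. How often a gene was lower in 6 or 5 of 7 lines was not counted over all genes. Such counts therefore single out nothing about the members. Tek, Erg, Emcn and Esam were each lower in 6 of 7 lines. The exceptions were line 14 for Tek (8.53 times its pMEFs) and WT line 4 for Erg (1.80 times its pMEFs). For Esam the exception was also line 14 (0.140 against 0.0657 CPM), and for Emcn it was line 13a (0.509 against 0.138 CPM). Flt1 was lower in 5 lines and higher in WT line 5 (2.39 times) and in line 13a (3.25 times).

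**Figure D3:**
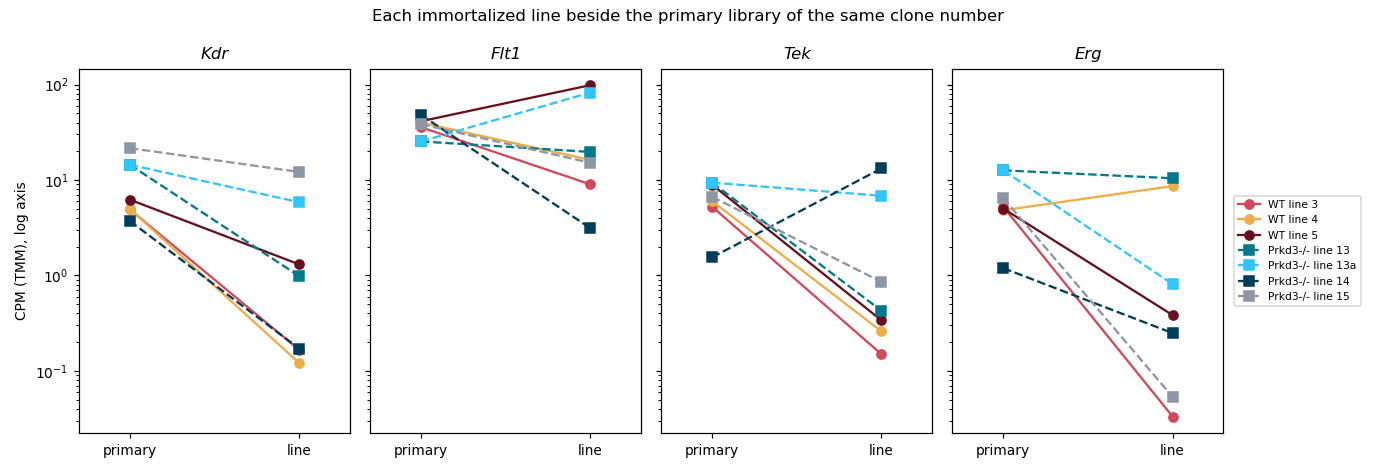
Kdr, Flt1, Tek and Erg in CPM on a log axis in each pMEF library and in the iMEF line of the same clone number, with 1 joined pair per line, solid for WT and dashed for Prkd3-/-. All 7 pairs fall for Kdr, while Tek rises in Prkd3-/- line 14 and Erg in WT line 4.

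An interaction term over the 13 libraries asked whether the response to immortalization differed with genotype. With edgeR 0 of the 9 members tested had an adjusted p under 0.05, as did 0.0% of the 21197 genes. Without adjustment 841 of these genes had a p under 0.05, Tek and Icam2 among them. For Tek the change in Prkd3-/- cells minus that in WT cells was 4.65 on the log2 scale (standard error 1.5, unadjusted p = 0.00994 and adjusted p = 1 in edgeR). A different response of Tek in the genotypes was therefore not shown at this number of libraries. For Icam2 the interaction was 5.27 (standard error 1.01, edgeR unadjusted p = 0.000245, adjusted p = 1), in libraries with at most 20 counts of this gene. Icam2 had 16 to 20 counts in WT pMEFs and at most 6 in every other library. It passed the filter on low counts through WT pMEFs alone. Its interaction thus restates the level of the group that admitted it to the test. DESeq2 called 37 genes, Icam2 with an adjusted p of 0.0464 as the single member.

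Between pMEFs of the genotypes, edgeR called 0 of the 8 members tested, where 0.765% of all genes were called in either direction. Of these members Icam2 alone had an unadjusted p under 0.05 in edgeR, as did 4921 of all 20403 genes tested. Icam2 was closest, with 16 to 20 counts in WT pMEFs and 0 to 2 in Prkd3-/- pMEFs (Log2FC −4.63, edgeR adjusted p = 0.0217, DESeq2 adjusted p = 0.00103), and DESeq2 called 2.48% of all genes. Here too Icam2 passed the filter on low counts through WT pMEFs alone. Kdr averaged 13.3 ± 8.99 CPM in Prkd3-/- and 5.37 ± 0.742 CPM in WT pMEFs (n = 3 each; Log2FC 1.31, edgeR adjusted p = 0.245). The pMEFs overlapped, since clone 14 lay below all WT pMEFs, and without that library both Kdr and Icam2 were called, as were 7.13% of the 20428 genes then tested. Flt1 was at 37.4 ± 11.5 against 39.0 ± 2.89 CPM (Log2FC −0.06, standard error 0.23). In all, the WT pMEFs were closer to each other in Flt1, Kdr, Tek and Erg than the Prkd3-/- pMEFs, as their SDs show. This was not particular to these genes. The mean chi-square per gene between pairs of libraries was 5.88 to 14.6 in WT and 56.5 to 458 in Prkd3-/- pMEFs.

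Transcripts of the receptors' ligands were counted in the same libraries. Vegfa, the ligand of Kdr and Flt1, rose in WT iMEFs from 32.7, 39.3 and 39.9 CPM to between 83.8 and 99.1 CPM (Log2FC 1.22 with a standard error of 0.12, edgeR adjusted p = 0.00472). With the clone as a block its adjusted p in edgeR was 0.0443. It was the single call among 8 VEGF and angiopoietin genes, 0 of which were called lower, where 0.0605% of all genes were called higher. For Prkd3-/- cells its level was 46.4 to 73.2 CPM in pMEFs and 39.0 to 86.0 CPM in lines (Log2FC 0.26, edgeR adjusted p = 0.888). Angpt1, the agonist of Tek, was at 45.1 to 55.6 CPM in WT pMEFs and at 2.21, 22 and 13.1 CPM in lines 3, 4 and 5 (Log2FC −2.08, edgeR adjusted p = 0.212). It ranged in Prkd3-/- cells from 8.76 to 38.9 CPM in pMEFs and reached 176 CPM in line 14, the line with the highest Tek. Angpt2, which can oppose Angpt1, was at 7.92 to 9.38 CPM in WT pMEFs and 0.768 to 1.92 CPM in the lines, and missed the threshold (Log2FC −2.69, edgeR adjusted p = 0.0119, DESeq2 adjusted p = 1.1e-12). Angpt2 overlapped between states in Prkd3-/- cells (Log2FC −0.40, edgeR adjusted p = 0.956).

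Among the 23 further endothelial markers, 14 were tested in WT cells and 1 was called, where 1.76% of all genes were called lower. In edgeR 5 had an unadjusted p under 0.05, as did 3905 of all 19836 genes tested. DESeq2 called 3 (Plvap, Vwf and Cd93), where it called 3.68% of all genes lower. For 6 of the 14, every WT line lay below every pMEF library, as for 15.7% of all tested genes. Cd93, a lectin-like receptor that monocytes also carry, fell from 21.1, 25.8 and 27.5 CPM in pMEFs to between 1.31 and 3.32 CPM in lines (Log2FC −3.51 with a standard error of 0.37, edgeR adjusted p = 0.00646). With the clone as a block the edgeR adjusted p of Cd93 was 0.0403. In Prkd3-/- pMEFs of clones 13, 14 and 15 Cd93 was at 1.79, 35.4 and 5.22 CPM. It was highest in library 14, which held the most macrophage markers, and their part in its level was not tested. The median Log2FC of the 14 was −0.34. Of 15 tested in Prkd3-/- cells edgeR and DESeq2 each called 0, and their median was −0.31. In edgeR 1 of the 15 had an unadjusted p under 0.05, as did 1331 of all 20298 genes tested. The summed level of the 23 markers was 142 to 149 CPM in WT pMEFs and 40.6 to 199 CPM in WT iMEFs, and it ranged from 48.9 to 87.9 CPM in Prkd3-/- pMEFs and from 15.6 to 187 CPM in Prkd3-/- iMEFs. The highest sums, in WT line 4 and Prkd3-/- line 14, came with 100.1 and 156 CPM of Eng, a TGF-beta co-receptor.

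**Figure D4:**
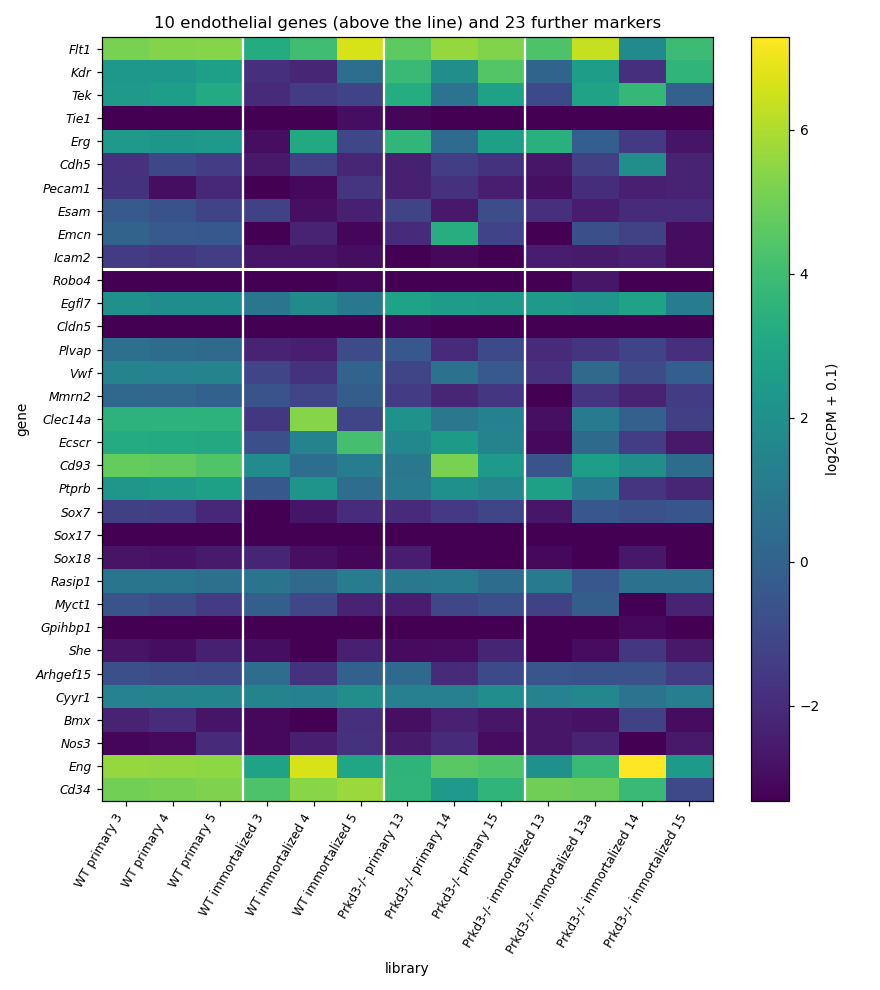
Heatmap of log2(CPM + 0.1) for the 10 endothelial genes (above the white line) and 23 further endothelial markers in each of the 13 libraries, with the groups divided by vertical lines. Tie1, Sox17, Cldn5, Gpihbp1 and Robo4 stay at the dark end in all libraries, while Flt1 and Eng are among the brightest rows.

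Of 9 ETS and partner factors, 8 were tested and 2 were called lower in WT iMEFs, where 1.76% of all genes were. Tal1 fell from 2.43 to 2.56 CPM in pMEFs to 0.0498 to 0.123 CPM in lines (Log2FC −5.03 with a standard error of 0.41, edgeR adjusted p = 0.00285). Lmo2 fell from 10.2 to 11.9 CPM to 0.518 to 0.680 CPM (Log2FC −4.19 with a standard error of 0.18, edgeR adjusted p = 0.000356). With the clone as a block neither passed, with adjusted p-values from edgeR of 0.0389 for Tal1 and 0.0230 for Lmo2. Both belong to a transcription complex of blood and endothelial cells. In Prkd3-/- pMEFs of clones 13, 14 and 15 Tal1 was at 0.219, 3.20 and 0.614 CPM. Lmo2 was at 0.715, 13.7 and 1.62 CPM there. Both thus had the order of the macrophage markers, which summed to 93.1, 1042 and 223 CPM. The part of macrophages in the levels of Tal1 and Lmo2 was not tested. The other lists held 6 VEGF co-receptors and lymphatic genes, 10 Notch and arteriovenous genes, 6 members of the ICAM and JAM families, 8 pericyte markers, 8 fibroblast markers, 10 megakaryocyte and erythroid markers and 4 epithelial markers. In WT cells edgeR called 0 of the 42 of these that were tested, where it called 361 of all 19836 genes. Of the 42, 11 had an unadjusted p under 0.05 in edgeR, as did 3905 of all genes tested. DESeq2 called 8 of them, where it called 1361 of 33613 genes. Over all lists but the members, edgeR called 0 of 83 genes tested in Prkd3-/- cells, and 0 of all 20298 genes. Of the 83, 10 had an unadjusted p under 0.05 in edgeR, as did 1331 of all genes. DESeq2 called Pf4 and Des, where it called 190 of 34743 genes.

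Macrophage markers moved in the same direction as Tek in WT cells. All 9 were lower in every line than in every pMEF library, as were 15.7% of all tested genes. Of these markers 7 were called, where 1.76% of all genes were called lower. The sum of the 9 went from 674 to 703 CPM in pMEFs to 34.5 to 99.6 CPM in iMEFs. The 6 with the smallest p-values were Cd68, C1qa, C1qb, Csf1r, Itgam and Tyrobp, with Log2FC between −4.70 and −3.60. With the clone as a block edgeR called 0 genes of the whole WT table, these markers included, with 2784 at an unadjusted p under 0.05. The part of macrophages in the fall of Tek was not tested. In Prkd3-/- cells both were higher in line 13a (178 CPM of markers and 6.83 CPM of Tek) than in lines 13 (17.2 and 0.426 CPM) and 15 (16.3 and 0.855 CPM). The clone 14 libraries had another order. There pMEF library 14 had the highest marker sum and, with 1.55 CPM, the lowest Tek of the 3 pMEFs, and line 14 had the lowest sum, 10.0 CPM, and the highest Tek. Kdr too was lowest in pMEF library 14 among all 6 pMEF libraries, at 3.72 CPM. The markers of macrophages were at 93.1 CPM in pMEF library 13, where Kdr, Tek and Erg were at 14.5, 9.38 and 12.6 CPM.

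The genes whose log2 CPM followed each member most closely over the 13 libraries were found by Pearson correlation, for the 5 members with a mean of at least 1 CPM. The libraries share clones, tables and depth, and the values are descriptive. For Kdr these included Pcdh20 (r = 0.954) and Dlgap1 (0.946). For Tek they were Ntng1 (r = 0.948), Amph (0.935) and Kitl (0.934), and for Flt1 9330182L06Rik (r = 0.926), Lhfp (0.898) and Il1rl2 (0.897). Erg was followed by Adamts18 (r = 0.910), Cpa4 (0.891) and Rtl3 (0.873), and Emcn by Il15 (r = 0.941), Agtr1b (0.932) and Chn2 (0.923). No gene named here appeared for more than 1 member, and none of them belonged to the endothelial markers listed.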

How the data were processed

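The authors cultured the MEFs, prepared poly-A libraries read as pairs, and mapped them to mm10. The labels of all samples list FastQC 0.12.0, STAR 2.7.10a, SAMtools 1.18 and featureCounts of Subread 2.0.6. The deposited values are raw counts per gene of Ensembl release 102 (GRCm38), in a table for WT and a table for Prkd3-/-. Per the file headers, WT pairs were counted without a strand option and assigned to every gene they overlapped. The table for Prkd3-/- carries no command line and holds identical gene and length columns. The 10 members share 0 exon bases with other genes.

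The libraries of either genotype entered a separate fit in edgeR 4.0.16 in R 4.3.3 (TMM, filterByExpr, robust quasi-likelihood test, Benjamini-Hochberg adjustment over all genes tested), and a call needed a |Log2FC| of at least 1 with an adjusted p under 0.01. The interaction over 13 libraries was tested at an adjusted p under 0.05. CPM and FPKM used TMM factors over all 13 libraries, with mean ± SD over libraries. The floor, 3 counts, reflects counting error alone, since PCR copies are not independent molecules. By their labels, replicates are separate clones or lines, and no pair agreed within sampling noise. The WT pMEF libraries were the closest, with a mean chi-square per gene of 5.88 to 14.6 between pairs. It was 56.5 to 458 between Prkd3-/- pMEFs and 400 to 949 between lines of a group. Whether the WT pMEF libraries differ as separate embryos do was not tested, and their small spread entered the WT fits. Alternatives were DESeq2 1.42.0, no filter on low counts, library size alone or size factors in place of TMM, no robust option, limma 3.58.1 with weights per group, a joint fit, the clone as a block, lines 13 and 13a summed, other thresholds and each library left out. The fits were tested on simulated counts.

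The pairing of pMEFs with lines comes from their clone numbers, which the study's methods tie to embryos for WT. The counts do not tell whether each library is 1 embryo, and the relation of 13a to clone 13 is not given in the sources used here. The deviations from the group means of pairs with the same number correlated between −0.0486 and 0.0382 in WT and between −0.302 and 0.156 in Prkd3-/- cells.

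Named were the 10 members, Vegfa, Angpt1 and Angpt2, the called genes of 11 other lists (the 6 with the smallest p where over 6 were called), the 3 genes nearest to each member with a mean of at least 1 CPM, and Prkd3. For Kdr, 1 of the 3 is not reported here. Other genes, such as Eng, Clec14a and the markers near 0, were named after their values were seen. The members and lists were chosen with earlier results of these data known. Promoter windows are from RefSeq.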

Additional observations from a re-analysis of the deposited data

Results flagged for a closer look

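Cdh5 was at 3.72 CPM in Prkd3-/- line 14, far from the other 3 lines of its group, which held 0.0556 to 0.302 CPM. Erg was at 10.4 CPM in Prkd3-/- line 13, far from the 0.0534 to 0.811 CPM of the other 3 lines. The distance test that marked both is passed by chance in about 1 group in 20. It was run only on the group of 4 Prkd3-/- lines, so that no WT line or pMEF library could be marked. Icam2 was flagged for opposite directions in the genotypes, although it passed the filter on low counts through WT pMEFs alone. Icam2 was lower in every line than in every pMEF library of WT cells and higher in every line of Prkd3-/- cells, with an interaction of 5.27 on the log2 scale (edgeR adjusted p = 1), and its counts in Prkd3-/- libraries were 0 to 2 in pMEFs and 2 to 6 in lines.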

How the results depend on the processing

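Of the WT members, 1 was called, as were 361 of all 19836 genes tested. The number was 2 (Tek and Icam2) at an adjusted p under 0.05, where 868 of all genes were called. It was 4 with DESeq2, which called 1361 of 33613 genes, and 0 with limma, which called 184. It was also 0 with all libraries in a joint fit and with the clone as a replicate block. Both of these called 0 of all genes, so that they single out nothing about the members. With each library left out in turn it ranged from 0 to 2. The 0 came without pMEF library 3, 4 or 5, where 48 to 66 of all genes were called, or without line 4, where 361 were. The 2 (Kdr and Tek) came without line 5, where 743 of all genes were called. In the interaction, DESeq2 called 1 member among 37 genes in all, where edgeR called 0 of all genes. Between pMEFs of the genotypes the number was 0, where 156 of all genes were called. It was 1 at an adjusted p under 0.05 and with DESeq2, both times Icam2, where 607 and 836 of all genes were called. With libraries left out it ranged from 0 to 2, with 2 without Prkd3-/- pMEF library 14, where 1456 of all genes were called. The Log2FC of Flt1 in WT cells, 0.06, became −0.026 with library size alone, −0.69 with limma and −0.77 with the clone as a block, and ranged from −1.67 to 0.54 with libraries left out. In Prkd3-/- cells the left-out ranges were −0.29 to 2.89 for Cdh5, −1.57 to 0.070 for Flt1 and −1.11 to 0.37 for Tek, and Tek was at 0.046 with lines 13 and 13a summed. The block changed no other call of a member, and no call of a gene in the other lists was kept under it in WT cells. Library size alone moved the median Log2FC of all WT genes from 0.04 to −0.10. Over all alternatives, 217 Log2FC values of members kept their direction and side of the threshold, 5 came to pass it, 7 ceased to pass it and 10 changed sign, and 80 group means moved by less than 1 SD. The cause of these changes was not tested. Depth limits Pecam1, Tie1 and Icam2, which had at most 20 counts per library, so that differences in them were not detectable or rest on a few reads.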
